A study of Mus musculus with 4 samples.

Results

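The genes described here are *Brca1*, *Brca2*, *Palb2*, *Rad54l*, *Xrcc2*, *Exo1*, *Blm*, *Fanca* and *Fancd2*, which encode proteins of homologous recombination and of the Fanconi anaemia pathway. They were chosen by symbol, with earlier results of these data known, and are 9 of the 23420 gene symbols in the count files. All 9 passed the filter on low counts and were among the 14269 genes tested. RNA-seq had been performed on motor neuron (MN) cultures of the genotypes wild type (WT) and Patz1 -/- (*Patz1* KO), with 2 libraries per genotype. All 4 libraries came from E14, a mouse embryonic stem cell (mESC) line, that was differentiated into cervical MNs through embryoid bodies with retinoic acid and smoothened agonist. The *Patz1* KO cells had been made from E14 mESCs by CRISPR/Cas9 and grown from single clones. The labels do not name the clone behind each library, so the genotype and the clone cannot be told apart. Biological replicates in the study are separate differentiations, so the p-values measure the spread between differentiations. The sample titles name ESCs, whereas the source and the cell type name MNs.

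Homologous recombination repairs a broken chromosome by copying the intact sister chromatid, and it therefore acts in S and G2 phase of dividing cells. The ends are first cut back to single strands, which are then coated with protein and invade the sister. The Fanconi anaemia pathway recognises crosslinks between the DNA strands at stalled replication forks and hands them to the same machinery. Most of these genes are transcribed at the start of S phase under the E2F factors, and differentiated neurons, which have left the cell cycle, need little of them. In the developing nervous system, loss of several of them is known to kill dividing progenitors.

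The libraries held 14769104 to 23881522 counts. *Patz1* itself was counted at 91.5 and 94.3 CPM (counts scaled to a common library size, with TMM factors) in WT and at 47.6 and 42.6 CPM in *Patz1* KO, so transcripts of the gene were still present in both *Patz1* KO libraries. Its log2 fold change was -1.04 (adjusted p = 1.1e-07 by the edgeR quasi-likelihood test). RNA does not measure the protein, and the paper reports that PATZ1 protein was lost on western blots of *Patz1* KO mESCs, with the edit checked by sequencing. All 10 MN markers and all 10 markers of postmitotic neurons were detected. The summed level of the MN markers was 711 to 757 CPM in WT and 1037 to 1120 CPM in *Patz1* KO. That of the postmitotic neuron markers was 4584 to 4886 and 6513 to 6871 CPM. The 2 most abundant of these, *Tubb3* and *Dcx*, went from means of 1673 and 830.5 CPM in WT to 2421 and 1676 CPM in *Patz1* KO. Of the 10 MN markers, 7 were called higher, 1 lower and 2 not called. Of the 10 postmitotic neuron markers, 5 were called higher, 1 lower and 4 not called. Among all genes tested, 24.1% were called higher and 23.8% lower. The sum of the 10 progenitor markers overlapped, at 2207 to 2333 CPM in WT and 2250 to 2254 CPM in *Patz1* KO, but 4 of them were called lower and 3 higher.

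All 9 repair genes were lower in *Patz1* KO than in WT MNs. Their log2 fold changes, *Patz1* KO over WT, ran from -1.10 for *Exo1* to -0.38 for *Fancd2*, with a median of -0.89, whereas the median of all genes tested was -0.001. All 9 had an adjusted p below 0.05 by the edgeR quasi-likelihood test. Over the whole table, 23.8% of the genes tested were called lower by this rule, 24.1% were called higher and 47.9% were called in either direction. The 9 were chosen with earlier results of these data known, so their count is not a test of the pathways they belong to. For each of the 9 genes, both *Patz1* KO libraries lay below both WT libraries, which was also true of 37.2% of all genes tested. The summed level of the 9 genes was 283 and 302 CPM in WT and 167 and 159 CPM in *Patz1* KO. In cultures of mixed cells such as these, fewer dividing cells and less RNA per dividing cell cannot be told apart.

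**Figure D1:**
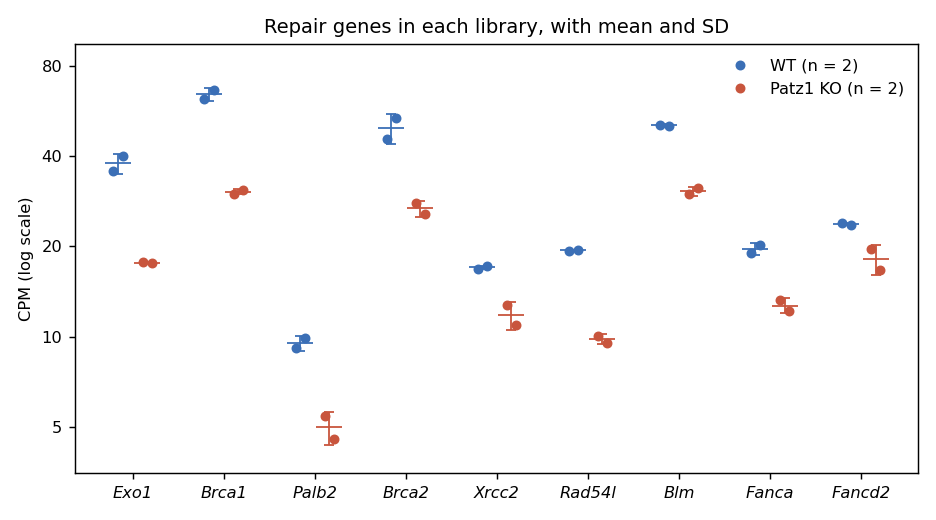
Level of each repair gene in CPM (y axis, log scale) in the 2 WT (blue) and the 2 *Patz1* KO (red) libraries, with points for libraries, a horizontal line for the mean and bars for the SD. The red points lie below the blue points for all 9 genes, with the widest gaps at *Exo1* and *Brca1* and the narrowest at *Fancd2*.

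*Exo1*, an exonuclease that extends the cut ends in recombination and that also removes mispaired strands in mismatch repair, showed the largest fall of the 9. WT libraries held 534 and 636 counts and *Patz1* KO libraries 430 and 295, which is 37.9 ± 2.93 CPM (SD) against 17.7 ± 0.106 CPM. The *Patz1* KO libraries were thus nearly identical to each other and under the lower WT library by more than the distance between the WT libraries. On the log2 scale the change was -1.10 (± 0.11 SE, 95% interval -1.34 to -0.87, adjusted p = 3.86e-07 by the edgeR quasi-likelihood test, Benjamini-Hochberg adjusted over all genes tested), which left 46.6% of the WT level. The gene occupies chr1:175880581-175913489 (GRCm38, the mm10 build), plus strand.

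*Brca1*, *Palb2* and *Brca2* encode proteins that act together at the cut ends. BRCA1 favours resection and recruits PALB2, which in turn holds BRCA2 at the break. *Brca1* was the most abundant of the 9 genes per kilobase of exon, and it was at 62.4 and 66.9 CPM in WT and at 30.0 and 31.0 CPM in *Patz1* KO. The change of *Brca1* on the log2 scale was -1.09 (± 0.098 SE, adjusted p = 9.13e-08 by the same edgeR fit). *Brca2* was at 45.7 and 53.9 CPM in WT and at 27.9 and 25.6 CPM in *Patz1* KO. The WT libraries differed more for *Brca2* than for any other of the 9 genes in CPM, and the lower one was still well above both *Patz1* KO libraries. The log2 fold change of *Brca2* was -0.89 (± 0.11 SE, adjusted p = 2.93e-06). *Palb2* was the least abundant, with counts of 136 and 157 in WT against 131 and 76 in *Patz1* KO. In CPM it went from 9.13 and 9.87 to 5.40 and 4.53, without overlap. The change of *Palb2*, -0.92 on the log2 scale, had the widest 95% interval of the 9, from -1.32 to -0.53 (adjusted p = 0.000619). The per-kilobase ratio of *Palb2* to *Brca2* was 0.372 and 0.340 in WT and 0.360 and 0.328 in *Patz1* KO, so their proportion overlapped between the genotypes. *Brca1* lies on chromosome 11 from 101488764 to 101551955, *Brca2* on chromosome 5 from 150522630 to 150570329 and *Palb2* on chromosome 7 from 122107262 to 122132985.

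*Xrcc2* and *Rad54l* act in the search for the sister chromatid, and RAD54L is a motor protein that helps the cut strand to invade it. *Rad54l* was at 19.3 and 19.4 CPM in WT and at 10.1 and 9.54 CPM in *Patz1* KO. A fall by 0.98 on the log2 scale (± 0.14 SE, adjusted p = 1.36e-05) left 50.7% of the WT level. *Xrcc2* was at 16.9 and 17.2 CPM in WT and at 12.7 and 10.9 CPM in *Patz1* KO. The *Patz1* KO libraries were further apart for *Xrcc2* than the WT libraries, and both lay below WT. The log2 fold change was -0.52 (± 0.14 SE, 95% interval -0.81 to -0.23, adjusted p = 0.00525). *Rad54l* lies on chromosome 4 from 116094264 to 116123690 and *Xrcc2* on chromosome 5 from 25689812 to 25705825.

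*Blm* encodes the helicase that takes joined chromatids apart without crossover, together with TOP3A, RMI1 and RMI2. It was at 51.0 and 50.4 CPM in WT and at 29.9 and 31.3 CPM in *Patz1* KO, with little spread in either genotype. The log2 fold change was -0.73 (± 0.097 SE, adjusted p = 8.33e-06), and 60.2% of the WT level was left. *Blm* lies on chromosome 7 from 80454733 to 80535119.

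*Fanca* and *Fancd2* are the Fanconi genes among the 9. FANCA belongs to the core complex, which attaches ubiquitin to FANCD2 and its partner FANCI at a crosslink. *Fanca* was at 19.0 and 20.3 CPM in WT and at 13.2 and 12.2 CPM in *Patz1* KO, which on the log2 scale is -0.63 (± 0.13 SE, adjusted p = 0.00077). *Fancd2* was at 23.9 and 23.7 CPM in WT and at 19.6 and 16.7 CPM in *Patz1* KO. The change of *Fancd2*, -0.38 on the log2 scale (± 0.12 SE, 95% interval -0.64 to -0.12, adjusted p = 0.0162), was the smallest of the 9. This call was the only one of the 9 that was lost with DESeq2's Wald test (adjusted p = 0.0925) and when either WT library was left out (0.0915 without replicate 1 and 0.0908 without replicate 2, with edgeR). *Fanca* lies on chromosome 8 from 123268300 to 123318576 and *Fancd2* on chromosome 6 from 113531682 to 113597017.

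Among themselves the 9 genes did not fall alike. Of the 36 pairs of genes, 6 had 95% intervals of the log2 fold change that did not overlap. *Fancd2* was the gene with the smaller fall in 4 of these pairs, against *Exo1*, *Brca1*, *Rad54l* and *Brca2*, and *Xrcc2* was so in the other 2, against *Exo1* and *Brca1*. The intervals of the remaining 30 pairs overlapped.

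Some of the annotated exons of *Rad54l* overlap those of *Lrrc41* on the other strand, and some of those of *Fanca* overlap *Zfp276* on the other strand. The strand setting of the counting is not given in the sources used here, so reads from the shared stretches cannot be assigned with certainty. *Lrrc41* rose from 59.5 ± 0.835 to 78.9 ± 8.37 CPM (SD, n = 2 each; log2 fold change 0.41, adjusted p = 0.00218 by the edgeR quasi-likelihood test) and *Zfp276* from 23.1 ± 1.30 to 30.2 ± 2.05 CPM (log2 fold change 0.39, adjusted p = 0.00883). Both neighbours thus moved opposite to the repair gene they overlap. *Palb2*, *Brca2* and *Fancd2* overlap the annotated genes *Gm16326*, *Gm42529* and *Fancd2os* on the other strand, symbols that the count files do not hold. *Brca1*, *Exo1*, *Blm* and *Xrcc2* overlap no exon of another gene in the GENCODE M21 annotation.

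Per kilobase of exon, the levels of the 9 genes spanned a 5.86-fold range in WT and a 5.28-fold range in *Patz1* KO. In WT the order from the highest mean was *Brca1* (7.58 ± 0.377 CPM per kb; SD, n = 2), *Blm* (5.78 ± 0.0470), *Exo1* (4.503 ± 0.348), *Brca2* (3.65 ± 0.427), *Xrcc2* (3.26 ± 0.0432), *Fancd2* (3.00 ± 0.0225), *Rad54l* (2.52 ± 0.00907), *Fanca* (2.24 ± 0.101) and *Palb2* (1.29 ± 0.0716). No neighbours in this order overlapped in their 2 libraries. The lengths were those of all GENCODE M21 exons of a gene merged, and the annotation used for the counting is not given. The order between genes depends on these lengths, and the SD does not cover an error in them. In *Patz1* KO *Brca1* (3.57 ± 0.0756) overlapped with *Blm* (3.49 ± 0.116) at the top, and *Fancd2* (2.29 ± 0.259) came next. It overlapped with *Xrcc2* (2.26 ± 0.243), which in turn overlapped with *Exo1* (2.097 ± 0.0126). *Brca2* (1.96 ± 0.119), *Fanca* (1.45 ± 0.0838), *Rad54l* (1.27 ± 0.0483) and *Palb2* (0.677 ± 0.0841) followed without overlap. *Exo1* thus went from the third to the fifth place and *Fancd2* from the sixth to the third.

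Because the 9 genes moved together, the promoters that RefSeq gives for them on GRCm38.p6 were searched for short motifs of cell cycle genes and of the G-rich kind. An entry was at hand for 6 of the 9 genes, *Brca1*, *Brca2*, *Palb2*, *Rad54l*, *Blm* and *Fanca*, and for 27025 genes in all. Each entry holds 250 bases before and 50 bases after the annotated start. The CCAAT box, to which NF-Y binds, was present on either strand in 5 of the 6, all but *Brca2*, and in 37.9% of all promoters. In *Palb2* the only match, on the other strand, begins 1 base after the annotated start. Those of *Brca1*, *Rad54l*, *Blm* and *Fanca* lie before the start. One of the E2F-type octamers TTTCGCGC, TTTGGCGC and TTTCCCGC was found on either strand in 1 of the 6, *Brca2*, and in 1.91% of all promoters. The cell cycle homology region TTTGAA was in 0 of the 6 and in 18.1% of all promoters, and the G-rich motif GGGAGGG, which resembles a MAZ site, in 0 of the 6 and in 21.3%. The GC box GGGGCGGGG, which may share bases with other G-rich motifs, was in 1 of the 6, *Blm*, and in 11.6%. In comparison, the CCAAT box was present in 16 of 28 promoters of DNA replication genes and in 16 of 18 of G2 and mitosis genes, and also in 17 of 28 of the other homologous recombination genes and 15 of 23 of excision and mismatch repair genes. An E2F-type octamer was in 12 of the 28 DNA replication promoters and 1 of the 18 G2 and mitosis promoters.

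The stretches that hold these matches are shown for 5 of the genes, each 100 bases long, 5′ to 3′ on the strand of the gene. Capitals mark the CCAAT box (ATTGG on the other strand) and, in *Brca2*, the E2F-type octamer read from the other strand. In *Brca1* (chr11:101551956-101552055, minus strand, the 100 bases before the start) the box begins 86 bases before the start. In *Rad54l* (chr4:116123691-116123790, minus strand, the 100 bases before the start) it begins 50 bases before it. *Fanca* (chr8:123318577-123318676, minus strand, the 100 bases before the start) has a pair of boxes, 50 and 23 bases before it. *Blm* (chr7:80535099-80535198, minus strand) and *Brca2* (chr5:150522421-150522520, plus strand) are shown from 200 to 101 bases before the start. Starts here are those of RefSeq, which for *Blm* lies 121 bases and for *Brca2* 9 bases away from the GENCODE start of the gene positions above, so part of the *Blm* window lies inside the GENCODE gene.
Brca1: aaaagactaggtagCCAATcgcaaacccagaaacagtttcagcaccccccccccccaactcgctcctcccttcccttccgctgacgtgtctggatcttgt
Rad54l: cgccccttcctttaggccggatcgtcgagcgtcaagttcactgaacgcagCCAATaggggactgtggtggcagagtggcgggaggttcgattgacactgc
Fanca: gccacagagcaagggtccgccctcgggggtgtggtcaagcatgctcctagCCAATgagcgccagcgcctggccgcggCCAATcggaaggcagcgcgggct
Blm: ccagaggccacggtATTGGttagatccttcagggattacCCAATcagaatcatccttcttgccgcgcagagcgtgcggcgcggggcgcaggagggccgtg
Brca2: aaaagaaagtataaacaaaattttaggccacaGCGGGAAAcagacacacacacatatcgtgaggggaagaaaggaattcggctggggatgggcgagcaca
The genes with a CCAAT box in the window had log2 fold changes from -1.09 (*Brca1*) to -0.63 (*Fanca*), and *Brca2*, without one, had -0.89. A match is a run of letters and not a measured binding site.

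The other genes of homologous recombination were called lower more often than higher. Of 38 such genes, all tested, 21 were called lower (55.3%) and 3 higher (7.89%), against 23.8% and 24.1% of all genes tested. Their median log2 fold change was -0.40. The smallest p values belonged to *Fignl1* (62.0 ± 4.58 CPM in WT and 33.9 ± 0.0399 CPM in *Patz1* KO; SD, n = 2 each; log2 fold change -0.87), to *Rpa1*, which coats single-stranded DNA (log2 fold change -0.66), and to *Rmi2*, a partner of BLM (log2 fold change -1.12). For *Rmi2* the *Patz1* KO libraries were far apart, at 22.2 and 36.3 CPM, both below the 64.5 and 61.5 CPM in WT. Of the genes called higher, *Rad52*, which anneals single strands, rose from 10.9 and 10.8 CPM in WT to 17.7 and 19.6 CPM in *Patz1* KO (log2 fold change 0.77, adjusted p = 0.000171 by the edgeR quasi-likelihood test). *Mus81*, a nuclease that cuts joined chromatids, rose by 0.33 on the log2 scale (adjusted p = 0.0275), a call that was lost with DESeq2's Wald test (adjusted p = 0.12), with library size scaling alone (0.0605) and without WT replicate 1 (0.146) or WT replicate 2 (0.163). The remaining gene called higher was *Slx1b*, named after its value was seen (log2 fold change 0.35, adjusted p = 0.0434).

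**Figure D2:**
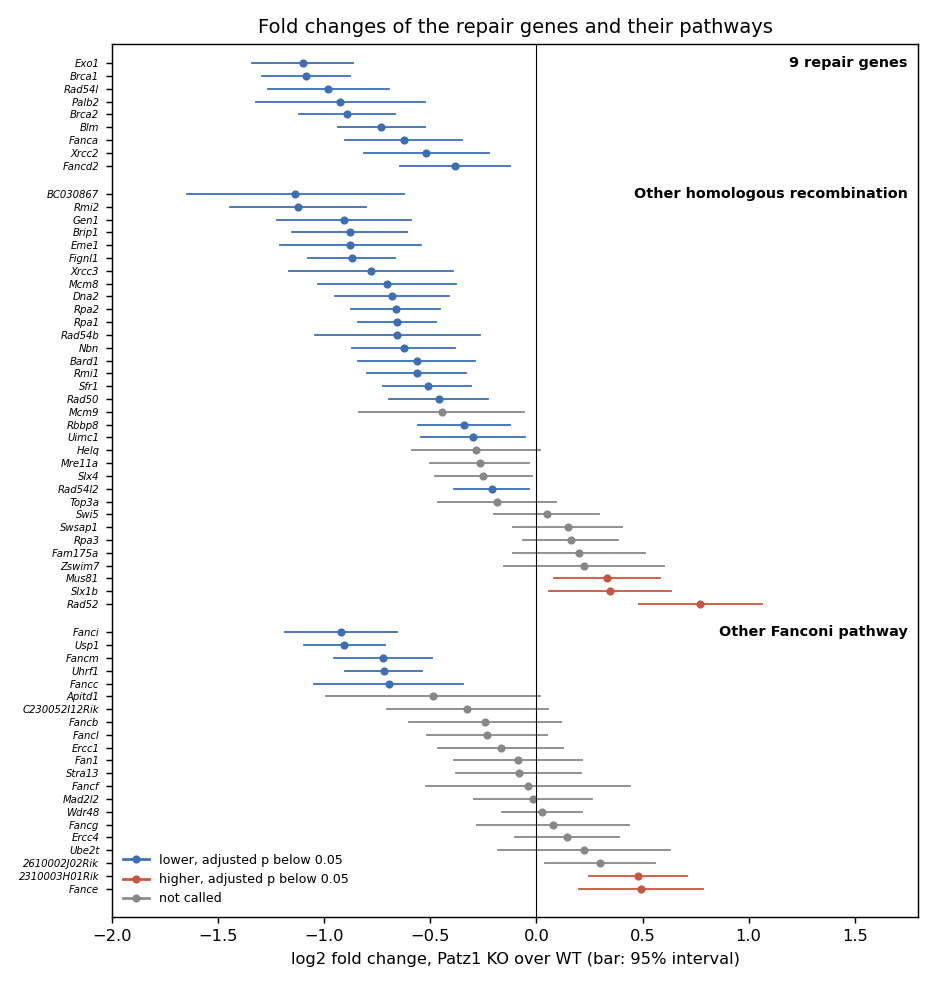
Log2 fold change of *Patz1* KO over WT (x axis) for the 9 repair genes, 33 of the other genes of homologous recombination and 21 other Fanconi genes, with bars for the 95% interval; blue marks genes called lower, red genes called higher and grey genes not called. All 9 repair genes are blue, and grey genes make up 10 of the 33 and 14 of the 21 genes below them.

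Several direct partners of the 9 proteins were set beside them; these partners were named after their values were seen. *Bard1*, which forms a dimer with BRCA1, fell by 0.56 on the log2 scale (adjusted p = 0.00172), and its 95% interval of -0.84 to -0.29 did not overlap that of *Brca1*, -1.29 to -0.88. The per-kilobase ratio of *Bard1* to *Brca1* was 0.563 and 0.444 in WT and 0.725 and 0.712 in *Patz1* KO, without overlap.

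*Xrcc3*, which acts in strand invasion as *Xrcc2* does, was at 11.5 and 10.1 CPM in WT and at 6.97 and 5.43 CPM in *Patz1* KO (log2 fold change -0.78, adjusted p = 0.00187 by the edgeR quasi-likelihood test). Its 95% interval of -1.16 to -0.40 overlapped that of *Xrcc2*, -0.81 to -0.23, so these changes are not shown to differ.

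Of the partners of BLM, *Rmi1* fell by 0.56 on the log2 scale (adjusted p = 0.00043 by the edgeR quasi-likelihood test), *Rmi2* by 1.12, and the topoisomerase gene *Top3a* was not called (log2 fold change -0.19, 95% interval -0.46 to 0.09). The interval of *Top3a* did not overlap that of *Blm*, -0.94 to -0.53. Its ratio to *Blm* per kilobase was 0.904 and 0.759 in WT and 1.33 and 1.08 in *Patz1* KO.

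Of 21 other Fanconi genes tested, 5 were called lower and 2 higher, shares of 23.8% and 9.52% beside the 23.8% and 24.1% of all genes tested. Their median log2 fold change was -0.087. The share called lower was therefore no larger than the background. The smallest p values were those of *Usp1*, which removes ubiquitin from FANCD2 (105 ± 5.84 CPM in WT and 56.3 ± 0.153 CPM in *Patz1* KO; SD, n = 2 each; log2 fold change -0.91), *Uhrf1*, known mainly for maintenance of DNA methylation and also as a sensor of crosslinks (log2 fold change -0.72), and *Fanci* (log2 fold change -0.92). *Fancm* and *Fancc* were the other 2 called lower. The genes called higher were *Fance*, a core complex member that binds FANCD2 (15.0 and 13.1 CPM in WT, 21.4 and 17.9 CPM in *Patz1* KO; log2 fold change 0.49, adjusted p = 0.00705 by the edgeR quasi-likelihood test), and *2310003H01Rik*, the symbol of *Faap100* in these files (log2 fold change 0.48, adjusted p = 0.00161). The call of *Fance* was lost without WT replicate 2 (adjusted p = 0.104). Of the core complex genes, *Fanca*, *Fancc* and *Fancm* were thus lower, *Fance* and *2310003H01Rik* were higher, and *Fancb*, *Fancf*, *Fancg*, *Fancl*, *C230052I12Rik* (*Faap24*) and *2610002J02Rik* (*Faap20*) were not called, with log2 fold changes from -0.33 to 0.30.

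The dimer partners *Fanci* and *Fancd2* fell unequally. *Fanci* was at 26.1 and 31.1 CPM in WT and at 15.4 and 14.8 CPM in *Patz1* KO. Its 95% interval of -1.18 to -0.66 did not overlap that of *Fancd2*, -0.64 to -0.12. The per-kilobase ratio of *Fanci* to *Fancd2* was 1.498 and 1.81 in WT and 1.08 and 1.22 in *Patz1* KO.

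Genes of end joining and of excision and mismatch repair were called lower about as often as all genes tested (23.8%). Of 16 genes of non-homologous end joining, which rejoins broken ends without a template, 4 were called lower (25.0%) and 1 higher, and the median log2 fold change was 0.11. *Dclre1c*, which opens hairpin ends, was at 70.4 ± 5.34 CPM in WT and 33.0 ± 8.87 CPM in *Patz1* KO (SD, n = 2 each; log2 fold change -1.11, adjusted p = 2.97e-06 by the edgeR quasi-likelihood test). *Rif1* and *Rnf168*, which hold back resection and mark chromatin at breaks, fell by 0.50 and 0.46 on the log2 scale. *Aplf* was called higher (log2 fold change 0.37, adjusted p = 0.0263), but not with DESeq2's Wald test (adjusted p = 0.115), nor without WT replicate 1 (0.249) or 2 (0.0586). Of 29 genes of excision and mismatch repair, 7 were called lower (24.1%) and 6 higher (20.7%, beside 24.1% of all genes tested), with a median of -0.087. *Msh6*, which recognises mismatches, fell by 0.78, and *Xpc*, which recognises bulky lesions, and *Polb*, the polymerase of base excision repair, rose by 0.96 and 0.61 on the log2 scale. Of 22 genes known mainly from meiotic recombination, 14 were tested. Of these, 3 were called lower (21.4%) and 4 higher (28.6%), near the 23.8% and 24.1% of all genes tested. *Syce1*, of the synaptonemal complex, rose by 1.93 from a low level (1.73 ± 0.839 to 6.67 ± 0.662 CPM; SD, n = 2 each), and *Mnd1* and *Psmc3ip*, whose products form a dimer that assists strand invasion in meiosis, fell by 1.66 and 0.73.

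**Figure D3:**
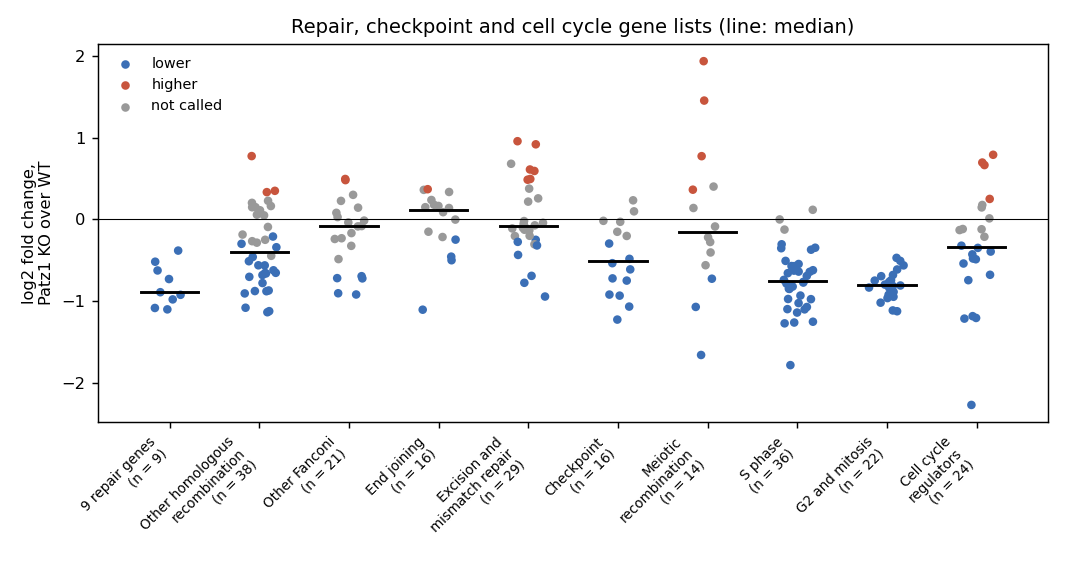
Log2 fold change of *Patz1* KO over WT (y axis) for each tested gene of 10 lists (x axis, with the number of genes), in blue where called lower, red where called higher and grey where not called; the black line is the median. Points of the 9 repair genes lie between -1.10 and -0.38, in the range of the S phase list, whereas end joining and excision repair genes scatter around 0.

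Of 16 genes of the DNA damage and replication checkpoints, 10 were called lower (62.5%, beside 23.8% of all genes tested) and 0 higher, with a median log2 fold change of -0.51. At an unadjusted p under 0.05, 0 of the 16 were higher, and DESeq2's Wald test also called 0 of them higher. *Timeless* and *Clspn*, which travel with the fork, fell by 1.23 and 1.07 and the kinase gene *Chek1* by 0.93 on the log2 scale.

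The levels of dividing-cell genes were measured beside the 9, since these act in S and G2 phase. Of 36 DNA replication genes of S phase, 33 were called lower (91.7%) and 0 higher (median log2 fold change -0.75), and all 22 genes of G2 and mitosis were called lower (median -0.80). None of either list was higher at an unadjusted p under 0.05, or called so by DESeq2. Of all genes tested, 23.8% were called lower and 24.1% higher. *Tyms*, which makes thymidylate, fell by 1.78, the replicative helicase genes *Mcm4* and *Mcm7* by 1.27 and 1.10, and *Mki67*, *Cenpe* and *Ube2c*, which serve mitosis, by 1.13, 1.12 and 1.02. The summed level of the S phase genes was 3043 and 3097 CPM in WT and 1824 and 1813 CPM in *Patz1* KO, and that of the G2 and mitosis genes was 2942 and 3122 CPM in WT and 1661 and 1677 CPM in *Patz1* KO. The sum of the 9 repair genes moved with both. Per 100 CPM of the S phase genes it was 9.31 and 9.74 in WT and 9.13 and 8.79 in *Patz1* KO, which are close but do not overlap. Per 100 CPM of the G2 and mitosis genes it was 9.62 and 9.66 in WT and 10.03 and 9.50 in *Patz1* KO, with overlap.

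Some of the 9 genes departed from this common course. The 95% intervals of the log2 fold changes of *Exo1*, *Brca1* and *Fancd2* did not include the S phase median of -0.75. Those of *Rad54l*, *Palb2*, *Brca2*, *Blm*, *Fanca* and *Xrcc2* did, so a departure of these genes is not shown. Per 1000 CPM of the S phase genes, *Brca1* was at 20.5 and 21.6 in WT and at 16.5 and 17.1 in *Patz1* KO, and *Exo1* at 11.8 and 12.9 in WT and at 9.73 and 9.70 in *Patz1* KO. *Rad54l* and *Palb2* were lower in *Patz1* KO on this scale too, *Palb2* narrowly, with 3.00 and 3.19 in WT and 2.96 and 2.50 in *Patz1* KO. *Brca2* and *Blm* overlapped between the genotypes. *Fancd2* was higher, at 7.86 and 7.64 in WT and at 10.7 and 9.21 in *Patz1* KO, and so were *Xrcc2* and *Fanca*. The gap was narrow for *Fanca*, with 6.24 and 6.54 in WT and 7.24 and 6.71 in *Patz1* KO. The other genes of homologous recombination together were at 45.9 and 45.8 per 100 CPM of the S phase genes in WT and at 58.2 and 64.4 in *Patz1* KO, and the other Fanconi genes at 21.7 and 21.2 in WT and at 29.1 and 27.7 in *Patz1* KO. These ratios are descriptions of 2 libraries per genotype and were not tested. The sums behind them weigh the most abundant genes most. *Swi5* alone was at 206.3 and 186.2 CPM in WT and at 170.5 and 236 CPM in *Patz1* KO. Of the 38 other genes of homologous recombination, 21 were called lower and 3 higher, so the sum does not describe the typical gene.

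**Figure D4:**
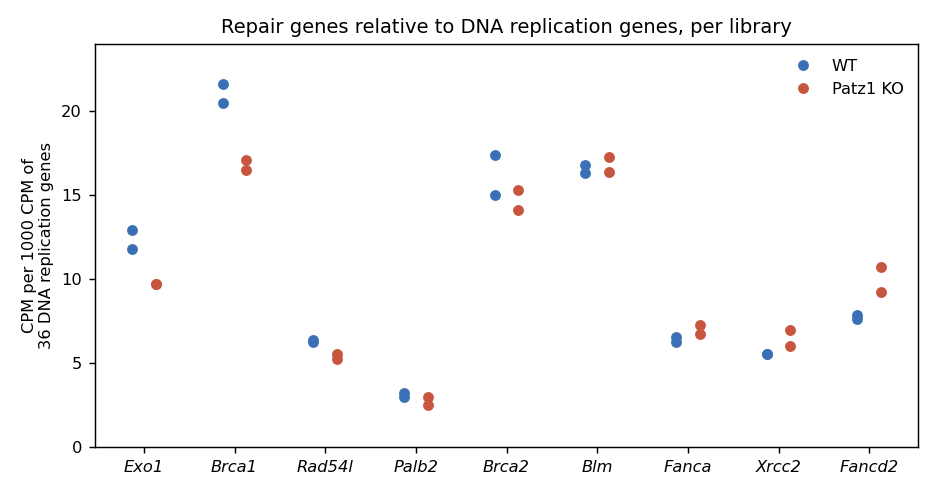
CPM of each repair gene per 1000 CPM of the 36 DNA replication genes of the same library (y axis), for the 2 WT (blue) and 2 *Patz1* KO (red) libraries. Red lies below blue for *Exo1*, *Brca1*, *Rad54l* and *Palb2*, overlaps it for *Brca2* and *Blm*, and lies above it for *Fanca*, *Xrcc2* and *Fancd2*.

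A list of 24 cell cycle regulators held E2F factors and related transcription regulators, cyclins and inhibitors of cyclin-dependent kinases. Of these, 13 were called lower (54.2%, beside 23.8% of all genes tested) and 4 higher (16.7%, beside 24.1%). *E2f8*, a repressor of E2F targets that is itself induced in S phase, was at 12.9 and 13.3 CPM in WT and at 2.72 and 2.68 CPM in *Patz1* KO (log2 fold change -2.27, adjusted p = 4.23e-08 by the edgeR quasi-likelihood test). The cyclin genes *Ccnd1* and *Ccne2* fell by 1.21 and 1.22 on the log2 scale. *Rbl2*, whose product represses cell cycle genes in resting cells, and *Cdkn1b*, an inhibitor of cyclin-dependent kinases, rose by 0.79 and 0.66.

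Markers of other cell types moved in the same contrast, in which 23.8% of all genes tested were called lower and 24.1% higher. The summed level of 9 mesenchyme markers was 172 to 182 CPM in WT and 34.6 to 42.1 CPM in *Patz1* KO, and all 9 were called lower. That of 10 markers of primitive and visceral endoderm was 44.2 to 52.2 CPM and 7.99 to 8.21 CPM, and 6 of the 8 tested were called lower. Markers of pluripotent cells were at 9.40 to 12.3 CPM in WT and 6.02 to 8.05 CPM in *Patz1* KO in sum, with *Utf1* at 0 in every library, and those of endothelial and blood cells at 9.80 to 11.6 CPM and 3.52 to 5.73 CPM, with *Tyrobp* and *Hba-a1* at 0. Glial markers were at 136 to 154 CPM in WT and 199 to 218 CPM in *Patz1* KO. The genes with the highest mean were *Col3a1* and *Col1a2* for mesenchyme, which fell by 3.24 and 1.37 on the log2 scale, *Dab2* and *Cubn* for endoderm, which fell by 3.34 and 2.92, and *Tubb3* and *Dcx* for neurons, which rose by 0.53 and 1.01. Without WT replicate 2, *Tubb3* was not called (adjusted p = 0.117 by edgeR). For MNs these were *Slc18a3* and *Lhx3*, which rose by 0.73 and 0.63, and for progenitors *Vim*, not called at -0.039, and *Fabp7*, which rose by 0.68. The progenitor markers called lower, named after their values were seen, were *Pax6* (log2 fold change -1.05), *Hes5* (-0.99), *Nes* (-0.72) and *Notch1* (-0.31), and *Sox1* (1.03) and *Nkx6-1* (0.47) were called higher beside *Fabp7*. Of the 6 glial markers tested, 4 were called higher and 1 lower. *Slc1a3* rose by 1.25, *Mbp* was not called at 0.014, and *Pdgfra*, which mesenchyme also expresses and which was named after its value was seen, went from 35.2 to 2.32 CPM (log2 fold change -3.96). For pluripotent cells *Klf4* fell by 1.78 and *Nanog* was not called at -0.70, and for vessels *Kdr* and *Cdh5* fell by 1.03 and 2.44. The part of these cell types in the fall of the 9 repair genes was not tested.

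Outside the lists above, the genes whose profile over the 4 libraries was most like the mean profile of the 9 were *Tmppe*, *Kntc1*, *Sgol1*, *Nup160* and *Pdp2*. The measure was the Euclidean distance between log2 CPM values centred on each gene's mean, over 4 libraries and 9574 genes with a mean of at least 10 CPM, and it ran from 0.0115 for *Tmppe* to 0.0343 for *Pdp2*. Their log2 fold changes ran from -0.81 (*Tmppe*) to -0.78 (*Pdp2*). *Kntc1* encodes a kinetochore protein, *Sgol1* the shugoshin that protects cohesin at centromeres, and *Nup160* a nuclear pore protein. No such role is given here for *Tmppe*, the closest, or for *Pdp2*. Over 4 libraries a profile is mostly the difference between the genotypes, so a close match does not show a shared function.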

How the data were processed

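The authors deposited raw counts of reads per gene symbol, 1 table per library. Per the study's methods, reads were mapped to mm10 with Bowtie 2. The submitters' processing notes name TopHat2 2.1.1, Bowtie2 2.3.1, featureCounts 1.6.2 and DESeq2. The annotation and the strand setting of the counting are not given in the sources used here. Libraries held 14769104 to 23881522 counts, and the 9 genes had 76 to 1064 counts per library.

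Groups were taken from the genotype label. Counts were filtered with filterByExpr (minimum count 10), scaled with TMM and tested across 14269 genes with edgeR's quasi-likelihood test (edgeR 4.0.16, limma 3.58.1, R 4.3.3), with Benjamini-Hochberg adjustment and a threshold of 0.05. The SE was derived from the F statistic of each gene, and 95% intervals from it and the t quantile. The test was checked on simulated data. Exon lengths and positions came from GENCODE M21 (GRCm38), to which 98.3% of symbols were matched, and promoters from RefSeq. Alternatives were other scalings, filters, robust estimation, a replicate block, DESeq2 1.42.0, a fold threshold and leaving out each library; other scalings of the summed levels were chosen later, with the data in view.

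The 9 genes and all lists were chosen with earlier results of these data known. Named were the 9 genes, *Patz1*, per list the 3 genes of smallest p and up to 2 called in the opposite direction, the 2 most abundant genes of each marker list and the 5 closest profiles. Same-numbered libraries did not deviate together (correlation 0.0253 over 14211 genes), so the numbers were not taken to pair them. Replicates differed by more than sampling noise (chi-square per gene 10.5 in WT and 23.4 in *Patz1* KO). Plots were drawn with matplotlib 3.10.9. Results for some listed genes are not reported here.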

Additional observations from a re-analysis of the deposited data

How the results depend on the processing

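All 9 repair genes kept their direction under all 13 alternatives, with median log2 fold changes from -0.98 to -0.76. 8 or 9 were called lower under all of them but the test against a fold threshold (log2 change beyond 1 either way), which called 0 of the 9, since their falls lie near or under that size. *Fancd2* was the gene lost where 8 were called. That fold threshold also left 718 genes in all (444 lower and 274 higher), 0 of the other homologous recombination genes lower and 0 of the other Fanconi genes lower. Leaving out each library in turn, which assumes that the lone library varies like the other genotype, gave 4521 to 7816 genes called (2175 to 3831 lower, 2346 to 3985 higher), 8 to 9 of the 9 repair genes, 17 to 24 of the 38 other homologous recombination genes and 5 to 6 of the 21 other Fanconi genes lower. The other homologous recombination genes called higher, 3 in all, numbered 1 to 6 on leaving out a library. The replicate block called 7361 genes, among them 9 of the 9, and moved the log2 fold change of *Fancd2* from -0.38 to -0.39 (adjusted p = 0.00335 by the edgeR quasi-likelihood test). No scaling moved the median of all genes by more than 0.028 on the log2 scale. Depth limits the genes with few counts, such as *Palb2*, whose interval is the widest of the 9.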
